A study of Homo sapiens with 12 samples.

Results

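The 1255 regions of chromosome 13, of 30170 regions in the series, were taken as every region whose name places it on that chromosome. Chromosome 13 was chosen by its measured counts, which stood out in earlier results of the same data, so its levels and those of its 10 Mb bins are given as a description and without a test. Open chromatin was measured by ATAC-seq in 12 libraries, 3 in each of 4 groups, all made from HCT116, a cell line established from a human colorectal carcinoma. EV cells carried the empty vector, EHF cells the ETS-family transcription factor EHF, CDX1 cells the caudal homeobox factor CDX1, and EHF+CDX1 cells both. The EHF plasmid was transfected and clones resistant to geneticin were taken, whereas CDX1 was delivered with a retrovirus and cells positive for GFP were collected. The EHF+CDX1 cells, whose libraries are titled E-C, came from CDX1 cells that were transfected with EHF and selected again as clones, so each combined library descends from cells that passed both steps. No source states that the 3 libraries of a group came from separate cultures, and p-values measure the spread between these libraries.

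In ATAC-seq a transposase inserts adapters into open DNA, and reads collect at promoters and enhancers. Chromosome 13 is acrocentric, so its mapped sequence is in effect a single long arm, which alternates between gene-rich stretches and broad gene-poor ones. It carries the intestinal homeobox gene CDX2, the epithelial factor KLF5, the tumour suppressor RB1 and the DNA repair gene BRCA2, and gain of this arm is common in colorectal cancer. A read count from bulk cells depends both on the number of DNA copies and on how open each copy is, and these cannot be told apart here.

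A few sequences frame the results, read from hg38 on the plus strand with the deposited coordinates taken as 1-based and inclusive. Capitals mark the CDX core (TTTATG or TTTATT) and the ETS core (AGGAAGT or CGGAAGT) on either strand. The first 2 are shown because they had the highest fitted differences between EHF+CDX1 and EV cells, the next 2 because they are the regions called lower, and the fifth because it lies 67 bp from the start of the transcription factor gene DACH1. In the last, capitals mark the stretch that aligned to mitochondrial DNA.
Intergenic, nearest coding gene RBM26 (chr13:79441749-79441899): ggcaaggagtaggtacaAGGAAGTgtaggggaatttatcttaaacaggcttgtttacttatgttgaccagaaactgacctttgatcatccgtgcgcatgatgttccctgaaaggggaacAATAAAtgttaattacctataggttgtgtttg
Intergenic, nearest coding gene LIG4 (chr13:108154450-108154600): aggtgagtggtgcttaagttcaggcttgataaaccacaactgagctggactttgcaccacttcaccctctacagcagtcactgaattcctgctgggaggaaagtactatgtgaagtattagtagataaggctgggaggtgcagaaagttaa
FAM230C exon (chr13:18212053-18212245): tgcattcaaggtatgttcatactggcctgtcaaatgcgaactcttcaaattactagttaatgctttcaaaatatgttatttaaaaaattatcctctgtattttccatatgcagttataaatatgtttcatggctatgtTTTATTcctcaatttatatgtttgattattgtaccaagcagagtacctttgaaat
ABCC4 intron (chr13:95256282-95256486): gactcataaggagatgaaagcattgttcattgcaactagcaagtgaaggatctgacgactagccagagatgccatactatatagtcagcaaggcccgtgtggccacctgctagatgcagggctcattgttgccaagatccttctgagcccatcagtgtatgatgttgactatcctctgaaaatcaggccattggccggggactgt
Beside the DACH1 start (chr13:71867271-71867421): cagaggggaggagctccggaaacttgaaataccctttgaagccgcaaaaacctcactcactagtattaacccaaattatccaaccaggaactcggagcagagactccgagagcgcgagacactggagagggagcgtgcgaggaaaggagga
Mitochondrial match (chr13:109424165-109424326): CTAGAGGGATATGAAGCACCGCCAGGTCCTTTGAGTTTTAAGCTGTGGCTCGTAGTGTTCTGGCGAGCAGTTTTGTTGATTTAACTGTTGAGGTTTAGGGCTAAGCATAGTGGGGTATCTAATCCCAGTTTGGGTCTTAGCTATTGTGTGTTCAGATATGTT

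The CDX core was present in 289 of the 1255 regions (23.0%) and in 15.5% of all regions, and the ETS core in 141 (11.2%) and in 10.3% of all regions. Among regions whose coordinates span 150 bp, the CDX core was held by 26.8% of the 937 on chromosome 13 and by 17.4% of the 16419 elsewhere, and the ETS core by 9.82% and 8.10%. The median GC content of these sets was 48.3% and 53.6%. A match of letters is a description and not a binding site.

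The regions overlapped an exon in 283 cases, lay in an intron in 457 and were intergenic in 515 (GENCODE annotation of hg38). Of them, 30.1% had a transcription start within 1 kb, against 46.2% of all regions. Their counts were low. In 604 regions (48.1%) every EV library had 3 counts or fewer, against 23.3% of the regions on the other autosomes, and the median region had 1 to 3 counts in EV libraries, 3 to 5 in EHF+CDX1 replicates 1 and 3, and 26 in EHF+CDX1 replicate 2. Regions had been called in each library and then merged, so a region could enter the set through a single deeply covered library.

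5 regions aligned to mitochondrial DNA and held 52.3% to 90.9% of the chromosome 13 counts of a library. The region at 109424165-109424326, in an exon of ENSG00000289901, matched mitochondrial DNA over all 162 bases at 100% identity and had 21596 to 42085 counts per library. The next, an intergenic region at 55971576-55971736, had 1321 to 4503 counts. These 5 regions, and such regions elsewhere in the genome, were left out of all levels, which leaves 1250 regions. With them kept in both chromosome 13 and the scale, the log2 ratio of EHF+CDX1 to EV was -0.05, and with them kept in the scale alone it was 1.47. They took 65.0% to 73.8% of all counts in EV libraries and 14.5% to 37.2% in the other 9.

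Library totals ran from 567366 to 2443334 counts. The scale, which sums the other autosomes without mitochondrial matches and without the stretches over the introduced genes, ran from 141621 counts in EV replicate 3 to 846618 in EHF+CDX1 replicate 2. Of the epithelial markers EPCAM, KRT8 and KRT18 had regions within 1 kb of a start and CDH1 had none. None of the leukocyte markers PTPRC, CD3E and CD79A had one, and of the fibroblast genes COL1A1 had 6 to 33 counts, COL1A2 had 1 to 21 and PDGFRB had no region.

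The summed level of chromosome 13 was highest in the combined line. The level, in counts on chromosome 13 per 1000000 counts of the scale, was 19490, 22936 and 19566 in the EV libraries. It was 20850, 25036 and 21366 in EHF cells and 21519, 25288 and 22241 in CDX1 cells. In EHF+CDX1 cells it was 27609, 50429 and 27046. Each combined library lay above all 9 others, replicate 2 by far the most. Replicate 2 was also the highest library of each other group, and in each group it had the most counts in the scale. The part of depth in this order was not tested.

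The group means were 20664 ± 1968 for EV, 22417 ± 2282 for EHF, 23016 ± 2001 for CDX1 and 35028 ± 13340 for EHF+CDX1 (SD, n = 3). The log2 ratio of EHF+CDX1 to EV was 0.76, and 0.40 without EHF+CDX1 replicate 2. Against EHF it was 0.64 and against CDX1 0.61, and without that library these were 0.29 and 0.25. The single lines overlapped EV, with log2 ratios of 0.12 for EHF and 0.16 for CDX1. Chromosome 13 held 4.80% of the autosomal counts in EHF+CDX1 replicate 2 (95% Wilson interval 4.76% to 4.85%) and 1.91% to 2.69% in the other 11 libraries.

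**Figure D1:**
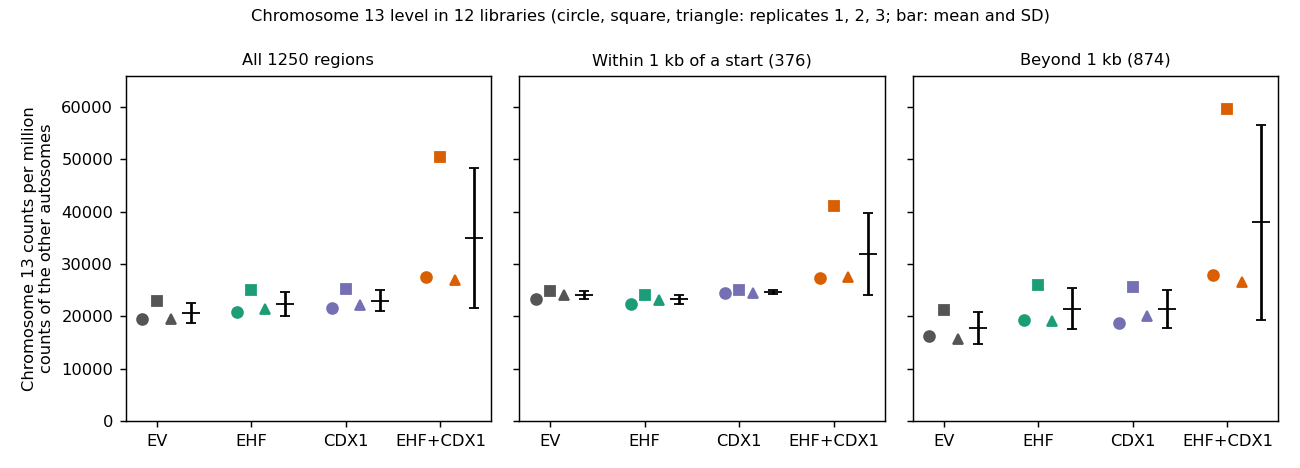
Counts on chromosome 13 per 1000000 counts of the other autosomes (vertical axis) by group (horizontal axis), for all 1250 regions, for the 376 within 1 kb of a start and for the 874 beyond it. Points are libraries and bars the mean and SD of 3 libraries. EHF+CDX1 replicate 2 lies at 50429 and the other combined libraries at 27609 and 27046, above all libraries of the other groups.

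Regions near starts and distal regions both carried the difference, and by unequal amounts. On a scale made from regions within 1 kb of a start, the level was 23368, 24890 and 24041 in EV cells and 27269, 41085 and 27466 in EHF+CDX1 cells. On a scale of regions beyond 1 kb it was 16300, 21183 and 15755 in EV cells and 27959, 59564 and 26529 in EHF+CDX1 cells. The log2 ratios were 0.41 near starts and 1.10 beyond them, and 0.18 and 0.62 without EHF+CDX1 replicate 2. In both classes all 3 combined libraries lay above the other 9. The ratio of EHF to EV was -0.05 near starts and 0.28 beyond, and in both classes the EHF and EV libraries overlapped.

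Among the 22 autosomes chromosome 13 had the highest log2 ratio of EHF+CDX1 to EV. The other 21 ran from -0.41 on chromosome 16 to 0.34 on chromosome 19. As a fold of the EV mean, chromosome 13 was at 1.34, 2.44 and 1.31 in the 3 combined libraries. It was the highest autosome in replicates 1 and 2, whereas in replicate 3 chromosome 19 was higher at 1.37. The ratios of chromosomes 13 and 19 without EHF+CDX1 replicate 2 were 0.40 and 0.39. Within each class of region chromosome 13 then no longer ranked first. Near starts chromosomes 20 (0.30) and 11 (0.22) exceeded it (0.18), and beyond 1 kb chromosome 19 (0.72) did (0.62).

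**Figure D2:**
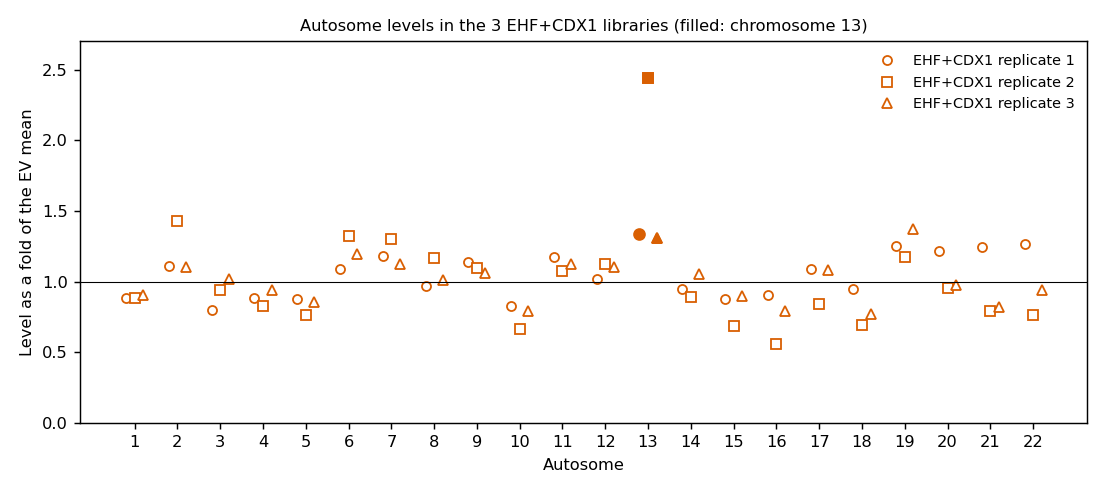
Level of each autosome (horizontal axis) as a fold of its EV mean (vertical axis) in the 3 EHF+CDX1 libraries, with chromosome 13 filled. Chromosome 13 reaches 2.44 in replicate 2, while in replicates 1 and 3 its 1.34 and 1.31 lie near the highest of the other autosomes.

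Along the chromosome the shift was broad and uneven. The 11 bins of 10 Mb that held regions had log2 ratios of EHF+CDX1 to EV from 0.16 to 2.18, with a median of 0.67, and all 11 were above 0. Without EHF+CDX1 replicate 2 the range was -0.06 to 1.26, with 10 of 11 above 0 and a median of 0.38. In EHF cells the bins ran from -0.16 to 0.31 and in CDX1 cells from 0.00 to 0.34.

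The highest bin was 80 to 90 Mb, which holds 99 regions, 3 of them near a start, and only 4 coding genes: SPRY2, an inhibitor of receptor tyrosine kinase signalling, and SLITRK1, SLITRK5 and SLITRK6, which encode neuronal transmembrane proteins. Its level was 418.9, 356.4 and 557.8 in EV cells and 1190, 3920 and 934.5 in EHF+CDX1 cells. The groups did not overlap, and the levels of EHF (434.5 to 500.0) and CDX1 cells (489.9 to 525.8) lay within the EV range. Of its 99 regions 98 had a higher mean in EHF+CDX1 cells, and in 91 every EV library had 3 counts or fewer. The log2 ratio was 2.18, and 1.26 without replicate 2.

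The bin at 60 to 70 Mb, with 7 coding genes that include the protocadherins PCDH9 and PCDH20 and the formin DIAPH3, had levels of 696, 723 and 777 in EV cells. In EHF+CDX1 cells they were 1420, 3619 and 1067, a log2 ratio of 1.48, and 0.76 without EHF+CDX1 replicate 2. Here the lowest combined library was below replicate 2 of both EHF and CDX1 cells, at 1130 and 1129. The bins at 70 to 80 Mb and 50 to 60 Mb followed, with log2 ratios of 1.07 and 1.01, and 0.67 and 0.59 without replicate 2.

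In 5 Mb bins the second of these split. The stretch from 55 to 60 Mb, with 28 regions, had the highest ratio of the 20 bins, 2.98, and 50 to 55 Mb had 0.75. Levels at 55 to 60 Mb were 70.7, 63.9 and 63.5 in EV cells and 334, 1011 and 219 in EHF+CDX1 cells, so that all 3 combined libraries stood apart. The EV levels rest on few counts, since 3 counts amounted on average to a level of 15.5 in EV libraries. At 50 to 60 Mb every EV library had 3 counts or fewer in 64 of 99 regions. The ratio at 55 to 60 Mb was 2.07 without EHF+CDX1 replicate 2, still the highest of the 20. The 5 bins between 25 and 50 Mb were at 0.53 to 0.66 with all libraries and at 0.14 to 0.40 without replicate 2, and at 25 to 30 Mb and 35 to 40 Mb the EHF+CDX1 and EV libraries overlapped.

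With all libraries the 2 end bins had the lowest ratios. The 19 regions at 10 to 20 Mb had levels of 626, 750 and 643 in EV cells and 621, 967 and 674 in EHF+CDX1 cells, and the groups overlapped. The last bin, from 110 Mb, which carries COL4A2 and ING1, had 2503, 2714 and 2711 in EV cells and 3123, 3857 and 3076 in EHF+CDX1 cells, a log2 ratio of 0.34. When EHF+CDX1 replicate 2 was left out, the first bin was at -0.06 and the last at 0.23, and the bin at 100 to 110 Mb lay between them at 0.19. The bins with 4 and 7 coding genes had the highest ratios, and the first bin, with 6, had the lowest. The value of the first bin rests in part on 1 region, at FAM230C. It held 245 of the EV mean level of 673 and 55.0 of the EHF+CDX1 mean of 754. A relation of the ratios to gene number was not tested.

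**Figure D3:**
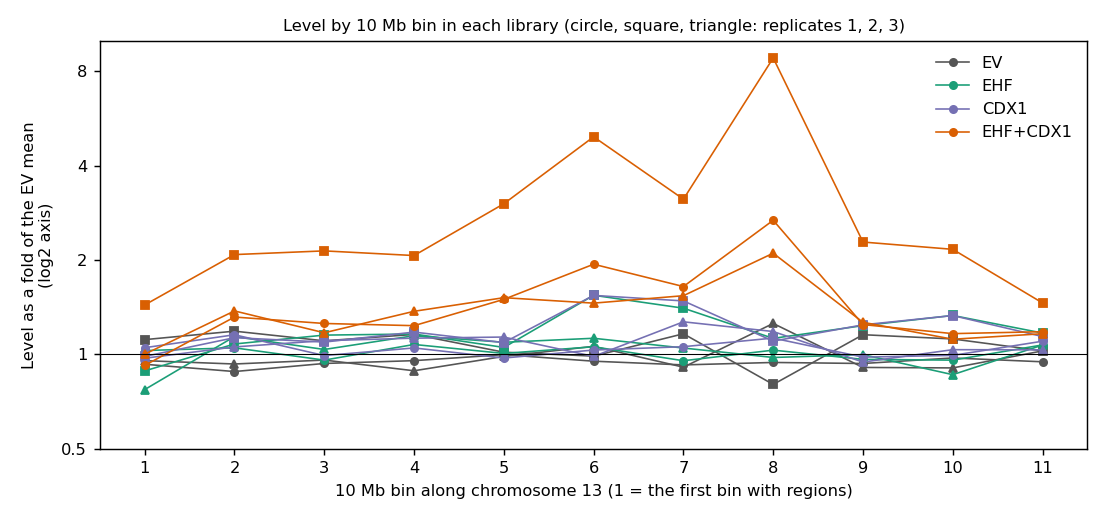
Level of each 10 Mb bin (horizontal axis, in order along the chromosome, the first being 10 to 20 Mb) as a fold of the EV mean (vertical axis, log2), 1 line per library. EHF+CDX1 replicate 2 is highest in every bin, and all 3 combined libraries peak in bin 8 (80 to 90 Mb), at folds of 2.68, 8.82 and 2.10.

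Split by distance to a start, distal regions followed this profile, with 1.82 at 50 to 60 Mb and 1.92 at 60 to 70 Mb, whereas start regions in these bins were at 0.41 and 0.55. Leaving out EHF+CDX1 replicate 2 gave 1.13 and 1.15, and 0.21 and 0.14. Regions near starts had a median log2 ratio of 0.41 over the bins, above 0 in 10 of 11, and distal regions 0.98, above 0 in 11 of 11. Without EHF+CDX1 replicate 2 these were 0.20, above 0 in 9, and 0.62, above 0 in 11. The value of 2.48 near starts at 80 to 90 Mb rests on 3 regions.

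**Figure D4:**
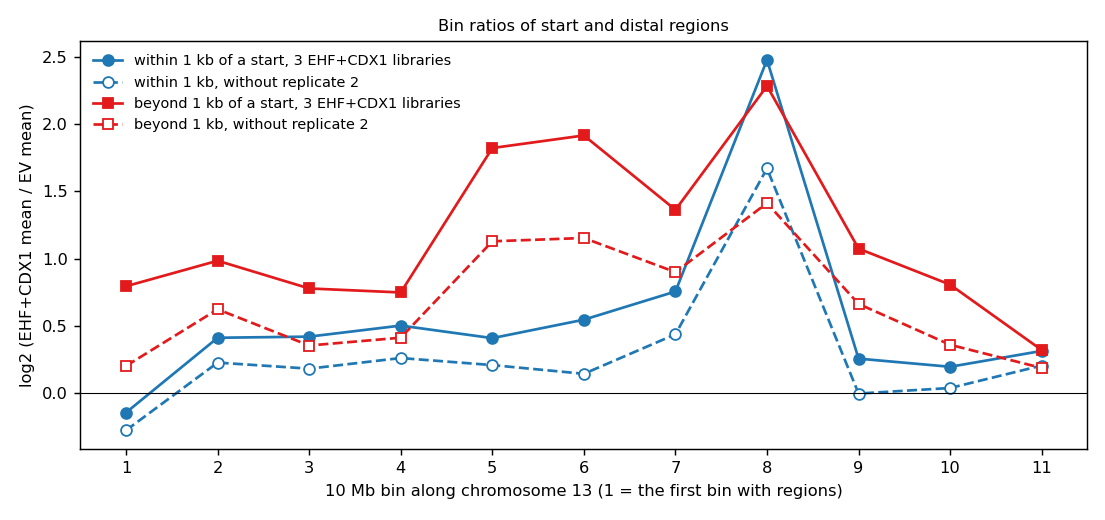
log2 ratio of the EHF+CDX1 mean to the EV mean (vertical axis) in each 10 Mb bin (horizontal axis) for regions within and beyond 1 kb of a start, each scaled on its own class, with all libraries (solid) and without EHF+CDX1 replicate 2 (dashed). Distal regions lie above start regions in 10 of 11 bins with all libraries, and the exception is bin 8, where 3 start regions give 2.48.

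Compared with bins of the other autosomes that held at least 20 regions, 9 of the 10 such bins of chromosome 13 had all EHF+CDX1 libraries above all EV libraries, against 27.7% of 274 others. The median log2 ratio was 0.67 against 0.12, and 0.41 against 0.07 without EHF+CDX1 replicate 2. Of the 10 highest of the 284 bins 3 lay on chromosome 13, and 1 bin elsewhere exceeded its highest. Only 1 of the 10 highest lay on chromosome 13 without EHF+CDX1 replicate 2, the bin at 80 to 90 Mb, which again ranked 2.

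The excess was spread over many regions. The mean level was higher in EHF+CDX1 than in EV cells in 1059 of 1250 regions (84.7%), against 61.0% on the other autosomes, and in 71.2% against 57.7% without EHF+CDX1 replicate 2. The region with the largest difference held 0.614% of the net excess, the 10 largest held 5.11% and the 100 largest 31.4%, and it took the 199 largest to add as much as the remaining regions did on balance. In 327 regions (26.2%) all 3 combined libraries lay above all EV libraries, where 16.1% of all regions did, and in 19 all lay below, where 5.97% did.

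Weak and strong regions both took part. Autosomal regions were divided into 3 classes of equal size by their mean level in the 6 EHF and CDX1 libraries, which the ratio of EHF+CDX1 to EV does not use. Regions came from merged peaks of all libraries, so a region weak in those 6 could enter the set through a combined library. The ratio of the weakest class cannot be separated from this choice of regions. Of the chromosome 13 regions 61.0% fell in the weakest class, where the log2 ratio was 1.53 on chromosome 13 and 1.08 on the other autosomes. In the middle class the ratio was 0.39 against 0.04, and the combined libraries, at 6118, 9272 and 6310, overlapped EV replicate 2 at 6285. In the strongest class, 207 regions, levels were 9649, 11302 and 9582 in EV cells and 11508, 16091 and 12752 in EHF+CDX1 cells, which did not overlap, although replicate 2 of EHF and of CDX1 cells lay at 13072 and 13084, and the ratio was 0.40 against -0.19 elsewhere. Chromosome 13 was thus above the other autosomes in each class, and weak regions were higher in EHF+CDX1 cells on the other autosomes too. When EHF+CDX1 replicate 2 was left out, the 3 ratios on chromosome 13 were 0.86, 0.17 and 0.25, against 0.70, 0.02 and -0.10.

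Single regions were tested with edgeR's quasi-likelihood F-test (two-sided, Benjamini-Hochberg adjustment over 30154 regions, adjusted p under 0.05 called), and all 1255 regions passed the filter on low counts. The contrast of EHF+CDX1 with EV is the one that chose the chromosome, so its call counts and adjusted p-values, here and below, are descriptive. In it 77 regions were called higher, where the background was 2.04%, and 2 lower, where it was 0.614%. By DESeq2 the counts were 7 and 1. Without EHF+CDX1 replicate 2 the calls were 0 higher and 2 lower. Without EV replicate 1, 2 or 3 the totals were 39, 21 and 43, and without EHF+CDX1 replicate 3 the total was 119. Of the 77 regions 67 lay beyond 1 kb of a start, 50 were intergenic, and in 68 every EV library had 3 counts or fewer. EHF+CDX1 replicate 2 supplied 79.1% of the combined-line counts in them. The CDX core was present in 29 and the ETS core in 14. Of all chromosome 13 regions beyond 1 kb of a start, 28.5% held the CDX core and 10.3% the ETS core. A difference in cores was not tested.

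With EHF cells as the reference 124 regions passed in the higher and 2 in the lower direction (background 3.42% and 0.796%), and with CDX1 cells 79 and 5 (background 1.94% and 0.547%). The totals were 2 and 5 without EHF+CDX1 replicate 2, and 8 and 5 by DESeq2. These comparisons and the interaction term share the combined libraries with the contrast that chose the chromosome, so their calls are descriptive too. In EHF and in CDX1 cells 0 regions were called against EV (background 0% and 0%). An unadjusted p under 0.05 was found in 58 and 51 regions. DESeq2 called 0 and 0, and limma voom 1 and 0. The interaction term, which asks whether the combined line departs from the sum of the log2 changes of the single lines, was called in 5 regions, all positive (background 0.143%), and in 0 without EHF+CDX1 replicate 2.

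The 3 bins with the highest ratios had the most calls, and the remaining bins did not follow the order of their ratios. Of these, 50 to 60 Mb had 6 of 99 regions called higher and 90 to 100 Mb had 10 of 156. The end bins had 1 of 19 and 3 of 99. Called higher were 16 of 99 regions at 80 to 90 Mb, 17 of 153 at 70 to 80 Mb and 11 of 89 at 60 to 70 Mb, against 1 of 120 at 30 to 40 Mb and 2 of 139 at 40 to 50 Mb. The bins also differed in EV counts. In the same order, 91, 80 and 69 regions had 3 counts or fewer in every EV library, against 48 and 40. The part of low counts in the profile of the bins was not tested. The median log2 fold change over the regions was 1.06 on chromosome 13 and 0.23 elsewhere.

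To separate single regions from the segment around them, each region was also set against the other regions of its own 10 Mb bin, a local scale. The median log2 fold change was then 0.20 on chromosome 13 and 0.10 elsewhere. Called higher were 14 regions and lower 20, where the background was 1.16% and 0.929%, and 16 of the 34 were also called on the common scale. At 80 to 90 Mb the calls higher went from 16 to 0, and at 60 to 70 Mb from 11 to 0. The median log2 fold change of these 16 regions went from 3.99 to 1.95 and their median SE from 1.07 to 1.27, and the median log2 fold change of the 11 regions went from 3.66 to 2.15. Here and below each SE is the absolute log2 fold change divided by the square root of the F statistic, so it restates the test. Without EHF+CDX1 replicate 2, 3 regions were called, all lower.

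**Figure D5:**
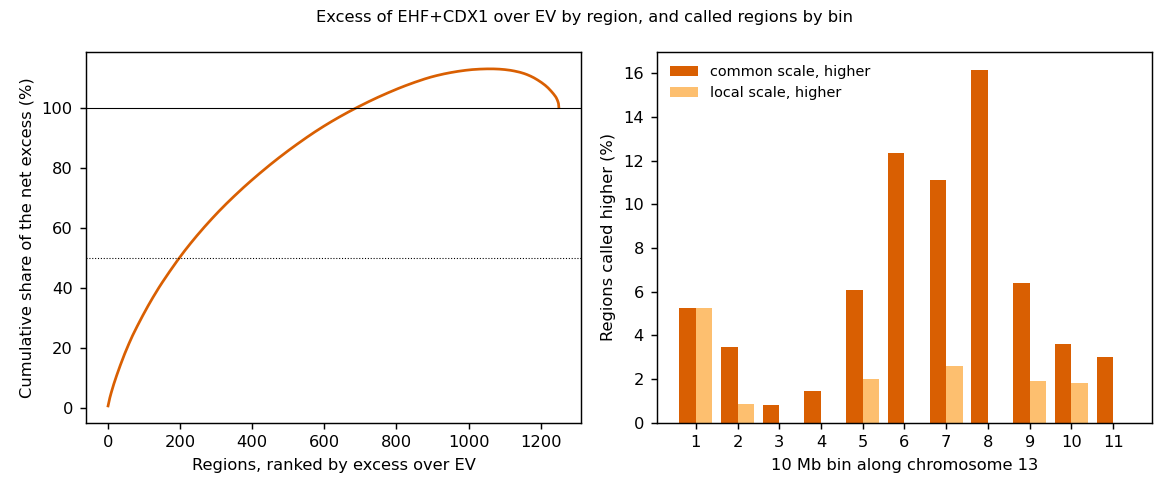
Left, cumulative share of the net excess of EHF+CDX1 over EV (vertical axis, percent) against regions ranked by their excess (horizontal axis). Right, share of regions called higher (vertical axis, percent) by 10 Mb bin (horizontal axis) on the common and on the local scale. The 100 largest regions hold 31.4% of the excess, and bins 6 and 8, at 12.4% and 16.2% on the common scale, have no region called higher on the local scale.

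The regions with the highest fitted differences had no counts in EV cells. They were ranked by this same contrast. A region could enter the set through a single combined library, so their adjusted p-values are descriptive on both scales. The region at 79441749-79441899, 35272 bp from the start of the RNA-binding protein gene RBM26, had 0 counts in all EV libraries and 15, 98 and 4 in EHF+CDX1 cells. It had 1 to 4 counts in EHF and 1 to 2 in CDX1 libraries. Against a floor of 3 counts per EV library it was at least 3.77-fold higher (adjusted p = 5.8e-06, and 0.0013 on the local scale), and at least 1.91-fold without EHF+CDX1 replicate 2. It holds 1 CDX and 1 ETS core.

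The region at 108154450-108154600, 60586 bp from LIG4, which encodes the ligase of non-homologous end joining, had 0 counts in all EV and CDX1 libraries. It had 13, 99 and 4 in EHF+CDX1 cells, at least 3.67-fold above the floor (adjusted p = 2.9e-05, and 0.00033 on the local scale), and 1.73-fold without EHF+CDX1 replicate 2. No CDX or ETS core is in its 151 bases. Without EHF+CDX1 replicate 2 neither was called (adjusted p = 0.055 and 0.11).

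The other 3 highest were at 102900354-102900504, 86051260-86051410 and 18280068-18280218, an intron of the pseudogene IGSF3P1. Each had 0 counts in all EV libraries, and in EHF+CDX1 cells they had 4, 85 and 3, then 6, 74 and 4, then 10, 50 and 4 counts. The bounds were 2.67-fold, 2.61-fold and 2.24-fold (adjusted p = 0.0017, 0.0006 and 0.004), and they rest on EHF+CDX1 replicate 2. From replicates 1 and 3 the means were 0.767, 1.08 and 1.45 times the EV floor, so that the first then gives no bound above 1. The region at 86051260, in the bin of the SLITRK genes, was not called on the local scale (adjusted p = 0.12), and the other 2 were. Its fitted log2 difference, which depends on the prior count, was 6.80 ± 1.35 on the common and 6.03 ± 2.15 on the local scale (SE). A further region at 91155647-91155797, with 0 counts in EV and 8, 54 and 2 in EHF+CDX1 cells, completed the 5 highest of the local scale (adjusted p = 0.025).

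2 regions were called lower, against the direction of the chromosome. The FAM230C region at 18212053-18212245, in an exon of a long non-coding RNA with near-identical relatives on other chromosomes, had 63, 46 and 37 counts in EV and 9, 83 and 10 in EHF+CDX1 cells. Its level fell from 245 ± 82.9 to 55.0 ± 38.1 per 1000000 (SD, n = 3) and the groups did not overlap. The log2 fold change was -2.02 ± 0.40 (SE, edgeR adjusted p = 0.00046) against EV, -1.63 against EHF (adjusted p = 0.0051) and -1.87 against CDX1 (adjusted p = 0.0014). How uniquely mapped reads were divided between copies of this family is uncertain.

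The other lay in an intron of ABCC4, a multidrug efflux transporter, at 95256282-95256486. It had 13, 33 and 7 counts in EV and 6, 33 and 3 in EHF+CDX1 cells, or 75.3 ± 31.9 and 22.8 ± 14.2 per 1000000 (SD, n = 3). The log2 fold change was -1.58 ± 0.43 (SE, edgeR adjusted p = 0.023), and -2.39 on the local scale (adjusted p = 5.7e-05). It was called against CDX1 cells (adjusted p = 0.028) and not against EHF cells (adjusted p = 0.088), and its call against EV was lost without EV replicate 2 (adjusted p = 0.3) and without EHF+CDX1 replicate 1 or 3 (adjusted p = 0.084 and 0.059). Over all alternative settings the ABCC4 result was weaker in 7, and that of the FAM230C region in 1. Both regions remained called without EHF+CDX1 replicate 2.

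On the local scale the lowest also included 2 regions in introns of MBNL2, a splicing regulator, and 1 intergenic region near CNMD. The MBNL2 region at 97308090-97308240 had 5, 13 and 2 counts in EV and 4, 6 and 2 in EHF+CDX1 cells (local log2 fold change -2.46, adjusted p = 0.028). The one at 97255012-97255188 had 3, 8 and 5, and 1, 9 and 2 (-2.42, adjusted p = 0.035). The region at 52786857-52787031 had 8, 11 and 7, and 3, 23 and 6 (-2.12, adjusted p = 0.014). None of these 3 passed on the common scale.

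Of the 5 regions of highest level without a mitochondrial match, FAM230C was one and the other 4, at gene starts, did not pass the test on the common scale. The ING1 promoter at 110715395-110715833, of a chromatin-binding tumour suppressor, had 21, 42 and 33 counts in EV and 87, 254 and 44 in EHF+CDX1 cells, or 160 ± 65.6 and 243 ± 59.1 per 1000000 (SD, n = 3), and the groups overlapped (log2 fold change 0.64 ± 0.38 SE, edgeR adjusted p = 0.35). The shared promoter of the mitotic genes BORA and MZT1 at 72727581-72728000 had 22, 46 and 14, and 49, 235 and 46 (0.72 ± 0.37 SE, edgeR adjusted p = 0.26). The promoter of the endoplasmic reticulum chaperone gene DNAJC3 gave 0.22 and the intronic region at the start of ATP11A, a phospholipid flippase, gave -0.63 (adjusted p = 0.78 and 0.34). Relative to its bin the ATP11A region was called lower, at -1.03 (adjusted p = 0.031). The sequence of this region repeats a short unit throughout, and how uniquely reads were placed in it is uncertain.

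Regions within 1 kb of a start were counted for 59 genes in 6 lists, which had been drawn up with earlier results known. 44 of the genes had a region, 80 regions in all, of which 72 had a positive log2 fold change in EHF+CDX1 against EV cells, 29 did not overlap between the groups, and 5 were called, all higher. As shares, 90.0% were positive, against 85.7% of all chromosome 13 regions and 61.2% of all regions tested. Higher without overlap were 36.3%, against 26.1% and 16.1%. Called higher were 6.25%, near the 6.14% of chromosome 13, where the background of all regions was 2.04%. Their median log2 fold change was 0.81, between the 1.06 of all chromosome 13 regions and the 0.26 of all regions tested. In EHF and CDX1 cells 0 of the 80 were called.

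The counts of single lists are to be read against these shares of chromosome 13. In the list of transcription factors 2 of 19 regions were called higher and 16 had a positive value (median 0.86). The DACH1 start, of a factor that acts in organ development, had 0, 0 and 1 counts in EV, 0 in all EHF and 1, 0 and 0 in CDX1 libraries, and 10, 73 and 6 in EHF+CDX1 cells. With 89 counts against 1, the ratio of summed counts over summed scales was 39.3 with a 95% counting interval of 6.88 to 1571, in which EHF+CDX1 replicate 2 weighs most. The ratio of the mean levels, 46.5 to 2.35 per 1000000, was 19.7. These ratios were 17.1 (2.66 to 719) and 11.3 without replicate 2. The edgeR adjusted p was 0.0025, and 0.047 on the local scale. It was the only region of the lists called on the local scale. KLF5, an epithelial proliferation factor, had 15, 17 and 6 counts in EV and 43, 143 and 36 in EHF+CDX1 cells, or 58.4 ± 16.7 and 147 ± 23.6 per 1000000 (SD, n = 3), without overlap (log2 fold change 1.31 ± 0.38 SE, edgeR adjusted p = 0.033). Relative to its bin the KLF5 region had a value of 0.30 (adjusted p = 0.71), and the means in EHF and CDX1 cells, 110 and 90.6, lay between.

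KLF5 was also the 1 region called of 14 in the intestinal epithelium list, in which 13 had a positive value (median 0.91). The CDX2 promoter had 5, 6 and 2 counts in EV and 12, 63 and 7 in EHF+CDX1 cells (log2 fold change 1.27 ± 0.53 SE, edgeR adjusted p = 0.17), and that of the pancreatic and duodenal factor PDX1 had 2, 8 and 2, and 13, 30 and 9 (0.97 ± 0.57 SE, edgeR adjusted p = 0.34). OLFM4, CLDN10 and EDNRB had no region.

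Of the genes chosen for gain of the arm in colorectal cancer, 2 of 22 regions were called higher (median 0.89): KLF5 again and a region 844 bp from a start of PIBF1, a centrosomal protein. The PIBF1 region had 0, 2 and 0 counts in EV and 8, 21 and 15 in EHF+CDX1 cells, a ratio of summed counts over summed scales of 9.73 with a 95% counting interval of 2.54 to 82.8 (edgeR adjusted p = 0.035). The ratio of its mean levels, 36.5 to 2.24 per 1000000, was larger, at 16.3. Its level was highest in EHF+CDX1 replicate 3, at 62.0 per 1000000, and lowest in replicate 1, at 22.7. EHF libraries had 0, 1 and 0 counts there and CDX1 libraries 6, 3 and 2. The region was called against EHF cells (edgeR adjusted p = 0.0035) and not against CDX1 cells (edgeR adjusted p = 0.41). In the cell cycle list 0 of 12 regions were called and 11 had a positive value (median 0.87).

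Among tumour suppressors and repair genes 1 of 18 regions was called higher (median 0.41). It lies 116 bp from the start of SPRY2 in the highest bin and had 3, 4 and 1 counts in EV, 4, 16 and 11 in EHF, 7, 10 and 3 in CDX1 and 23, 139 and 12 in EHF+CDX1 cells. Its level was 11.9 ± 4.26 and 93.0 ± 62.1 per 1000000 (SD, n = 3), a log2 fold change of 2.95 ± 0.53 (SE, edgeR adjusted p = 8.7e-05), and 0.73 on the local scale (adjusted p = 0.55). The ratio of its mean levels was 7.83, and 4.83 without EHF+CDX1 replicate 2. It was also higher than in EHF cells by 1.51 (adjusted p = 0.02) and than in CDX1 cells by 1.92 (adjusted p = 0.0063). RB1 had a value of 1.28 (adjusted p = 0.11), and the 2 regions of BRCA2 had 0.28 and 0.75 (adjusted p = 0.82 and 0.57).

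Of 6 regions at basement membrane and heparan sulfate genes 1 was called higher (median 1.23). It is 1 of 3 at the start of the collagen IV gene COL4A2 and had 1, 4 and 0 counts in EV and 15, 49 and 5 in EHF+CDX1 cells (log2 fold change 2.44 ± 0.74 SE, edgeR adjusted p = 0.044). The other 2 had values of 1.78 and 2.53 (adjusted p = 0.36 and 0.15). None of the 5 gene-linked regions was called without EHF+CDX1 replicate 2, and DESeq2 called SPRY2 alone (adjusted p = 0.08 to 0.18 for the other 4). The DACH1 call was also lost without EV replicate 2 (adjusted p = 0.057), and those of KLF5, PIBF1 and COL4A2 without any 1 of the 3 EV libraries (adjusted p = 0.056 to 0.16).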

How the data were processed

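The 12 ATAC-seq libraries were grouped by their labels, 3 per group. Per the submitters' processing notes and the study's methods, the authors aligned reads with Subread 2.0.0 to hg38, called peaks in each library with HOMER 4.7, merged them and deposited raw counts of uniquely mapped reads per region from featureCounts 2.0.0. The authors also deposited a table of log2 CPM, used here in 1 alternative only. The study's methods name quantile normalisation and limma voom and give no test of ATAC-seq regions between the lines.

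Levels are counts divided by the counts of the other 21 autosomes, without the stretches over the 2 introduced genes. Regions that matched mitochondrial DNA with blastn 2.17.0 over at least 40 bp at 80% identity were also left out, which departs from the plain wording of the selection rule. Annotation came from GENCODE 44. Regions with at least 3 CPM in 1 library (30154 of 30170) were tested with edgeR 4.0.16 (quasi-likelihood, all 4 groups in 1 fit, Benjamini-Hochberg, threshold 0.05) in R 4.3.3, with the summed counts of the scale as library sizes and, for the local scale, the other regions of the same 10 Mb bin as an offset with a pseudocount of 0.5. The fit was tested on simulated data. DESeq2 1.42.0, limma 3.58.1, another scaling, a replicate block and leaving out each library were alternatives. Levels were computed in Python 3.11.15 with numpy 2.4.6, pandas 2.3.3 and scipy 1.17.1.

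Members, gene lists and rules were chosen with earlier results of these data known. Named are the 5 highest and 5 lowest called regions on each scale with at least 20 counts and no overlap between EHF+CDX1 and EV, the 5 of highest level with and without mitochondrial matches, and the gene lists. The classes by level in EHF and CDX1 cells were chosen after the data were seen. Library totals ran from 567366 to 2443334 counts. Intervals (95%, Wilson for shares, exact for ratios) and the floor of 3 counts cover counting error only.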

Additional observations from a re-analysis of the deposited data

Results flagged for a closer look

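In 5 regions the combined line departed from the sum of the log2 changes of EHF and CDX1 cells by the interaction term of the edgeR fit, each time upward. The intergenic region at 69018322-69018472 had 3, 3 and 0 counts in EV, 1, 0 and 0 in EHF, 0, 1 and 0 in CDX1 and 10, 82 and 4 in EHF+CDX1 cells (edgeR adjusted p = 0.0109). The region at 64078205-64078369, 2161 bp from LINC00355, had 1, 1 and 5 counts in EV, 5, 2 and 0 in EHF, 0 in all CDX1 and 22, 61 and 7 in EHF+CDX1 cells (edgeR adjusted p = 0.0131). The regions at 103358354-103358504, 86446433-86446583 and 80235299-80235449 followed with 8, 64 and 2, then 2, 56 and 1, then 5, 41 and 1 counts in EHF+CDX1 cells and at most 5 in any other library (edgeR adjusted p = 0.0323, 0.0459 and 0.0467). In all 5 the counts of EHF+CDX1 replicate 2 were the highest, and without that library none was called. The term uses the combined libraries by which the chromosome was chosen. Regions could also enter the set through those libraries, so these calls are descriptive.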

How the results depend on the processing

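EHF+CDX1 replicate 2 decided most calls, and low counts limit single regions. With mitochondrial matches kept in the scale, the log2 ratios to EV were 1.47 for EHF+CDX1, 0.46 for EHF and 0.42 for CDX1, with 339 regions called in EHF+CDX1 and 3 for the interaction. With them kept in the members too, an alternative chosen after the data were seen, the ratios were -0.0459 for EHF+CDX1 and -0.0299 for EHF against EV, and -0.016 and -0.135 for EHF+CDX1 against EHF and CDX1. EHF against EV was -0.0583 with median-of-ratios scaling, -0.0515 and 0.276 within and beyond 1 kb of a start and -0.113 by medians. CDX1 against EV was 0.0185 with median-of-ratios scaling and 0.00817 by medians. Against EV, EHF and CDX1, DESeq2 called 8, 8 and 5 regions in EHF+CDX1 and voom 47, 68 and 54. DESeq2 and voom each called 0 for the interaction, voom called 1 in EHF against EV, and limma-trend on log2 CPM called 0 in EHF+CDX1 against EV. Without the robust option the interaction had 3 calls. With the replicate block it had 11 and the local scale 58. Same-numbered libraries correlated at -0.10 to 0.30, above 0.1 in 4 of 18 pairs. Replicates 2 of EV, EHF and CDX1 cells correlated at 0.22 to 0.30 with each other. EHF+CDX1 replicate 2 correlated with these at -0.10 to -0.02. The main fit did not pair libraries by number, and an effect shared by libraries of 1 number was not tested. Leaving out each library in turn gave log2 ratios of 0.40 to 0.92 for EHF+CDX1 against EV, 0.29 to 0.80 against EHF and 0.25 to 0.76 against CDX1, and 0.03 to 0.20 for EHF and 0.08 to 0.24 for CDX1 against EV. The calls ranged from 2 to 119, 2 to 178 and 5 to 132 for EHF+CDX1 against EV, EHF and CDX1, from 0 to 1 for EHF and 0 to 0 for CDX1 against EV, from 3 to 44 on the local scale and from 0 to 10 for the interaction. The lowest counts of the EHF+CDX1 comparisons, the local scale and the interaction were without EHF+CDX1 replicate 2, and the causes of these differences were not tested. The local scale was not run with DESeq2 or voom.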
